A study of Oryza sativa with 4 samples.

Results

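The enzymes of the phenylpropanoid, lignin and flavonoid pathways were compared between OsC3H10OX rice and nontransgenic (NT) rice. Members were taken from the annotation text deposited with each transcript, by the words phenylalanine ammonia, 4-coumarate, cinnamoyl-CoA, cinnamyl, caffeoyl, caffeic, laccase, dirigent, chalcone, flavone, flavanone, flavonol, anthocyan and isoflavone, leaving out annotations that name a P450. Those words matched 130 of 37972 listed transcripts, and keeping the most abundant matching transcript of each gene left 119 of 31414 genes. OsC3H10OX plants carried OsC3H10 (named OsTZF8 in the sample labels), a tandem CCCH zinc finger gene, under the PGD1 promoter, which the study used for whole-body overexpression. They came from a single line, line 20, in the T4 generation of cv. Nakdong, and NT plants of cv. Nakdong carried no transgene. Whole plants of both groups were harvested at 3 weeks without any treatment, and 2 libraries per group were sequenced. With 1 line, the effect of the transgene and that of its insertion site cannot be told apart.

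Phenylalanine ammonia-lyase (PAL) diverts phenylalanine into the phenylpropanoid pathway, where hydroxylation, methylation and activation by 4-coumarate:CoA ligase (4CL) give the CoA esters that all later branches share. Cinnamoyl-CoA reductase (CCR) and cinnamyl alcohol dehydrogenase (CAD) reduce these esters to monolignols, which laccases and peroxidases oxidize in the cell wall to form lignin, while dirigent proteins guide the coupling of monolignols to lignans. Chalcone synthase starts the other branch, which passes through chalcone isomerase to flavanones and from there to flavones, flavonols and anthocyanidins, and in rice leaves it is best known for flavone C-glycosides.

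The values are FPKM (fragments scaled to transcript length and to the number of mapped fragments of the library), so levels can be compared between genes. From the size of 1 read in the low values, 1 FPKM corresponded per kb to 41.2 and 38.0 reads in OsC3H10OX and to 36.7 and 56.65 reads in NT. The kb is counted after 180 nt (OsC3H10OX) or 175 nt (NT) is taken off the transcript, so a 1-kb transcript holds fewer reads. The log2 values of all tested transcripts correlated across libraries at 0.972 within OsC3H10OX, at 0.971 within NT and at 0.931 to 0.962 between the groups. OsUBI1, the internal control of the study's qRT-PCR, was listed at 416 and 403 FPKM in OsC3H10OX and at 419 and 356 FPKM in NT. OsC3H10 itself was not analysed here. The spans of 28 tested members overlapped another annotated gene, and the library kit does not mark strand, so reads of overlapping genes cannot be told apart.

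Of the 119 members, 94 reached 1 FPKM in 2 or more libraries and were tested, and 25 did not. For 2 of the tested members, another transcript of the gene was more abundant than the matching one. The test was limma's moderated test on the deposited log2 values, two-sided, with Benjamini-Hochberg (BH) adjustment over all 30449 transcripts tested, and a member was called at an adjusted p under 0.05. A log2 fold change is OsC3H10OX minus NT on the log2(FPKM + 1) scale, which understates changes of low genes. The called members were CAD, laccase, dirigent-like, isoflavone reductase-like and chalcone reductase-like genes. In all, 4 members were called higher (4.26%, against 0.695% of 25882 tested genes) and 4 were called lower (4.26%, against 0.869%). Of the tested members, 5 reached 1 FPKM in 1 group only, and among the 89 others 3 were called higher (3.37%) and 4 lower (4.49%). These 4 still include Os10g0113000, which reached 1 FPKM in only 1 OsC3H10OX library and would not have passed the filter without NT. A log2 fold change of at least 1 in size, 2-fold on the log2(FPKM + 1) scale, was found for 6 members in the higher direction (2.14% of all tested genes) and 4 in the lower direction (1.7% of all tested genes). Both OsC3H10OX libraries were above both NT libraries for 32 members (34.0%, against 27.3% of all tested genes) and below both for 25 members (26.6%, against 27.1%). The unadjusted p was under 0.05 for 16 higher members (8.45% of all tested genes) and 19 lower members (9.61% of all tested genes). The median log2 fold change over the tested members was 0.04.

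**Figure D1:**
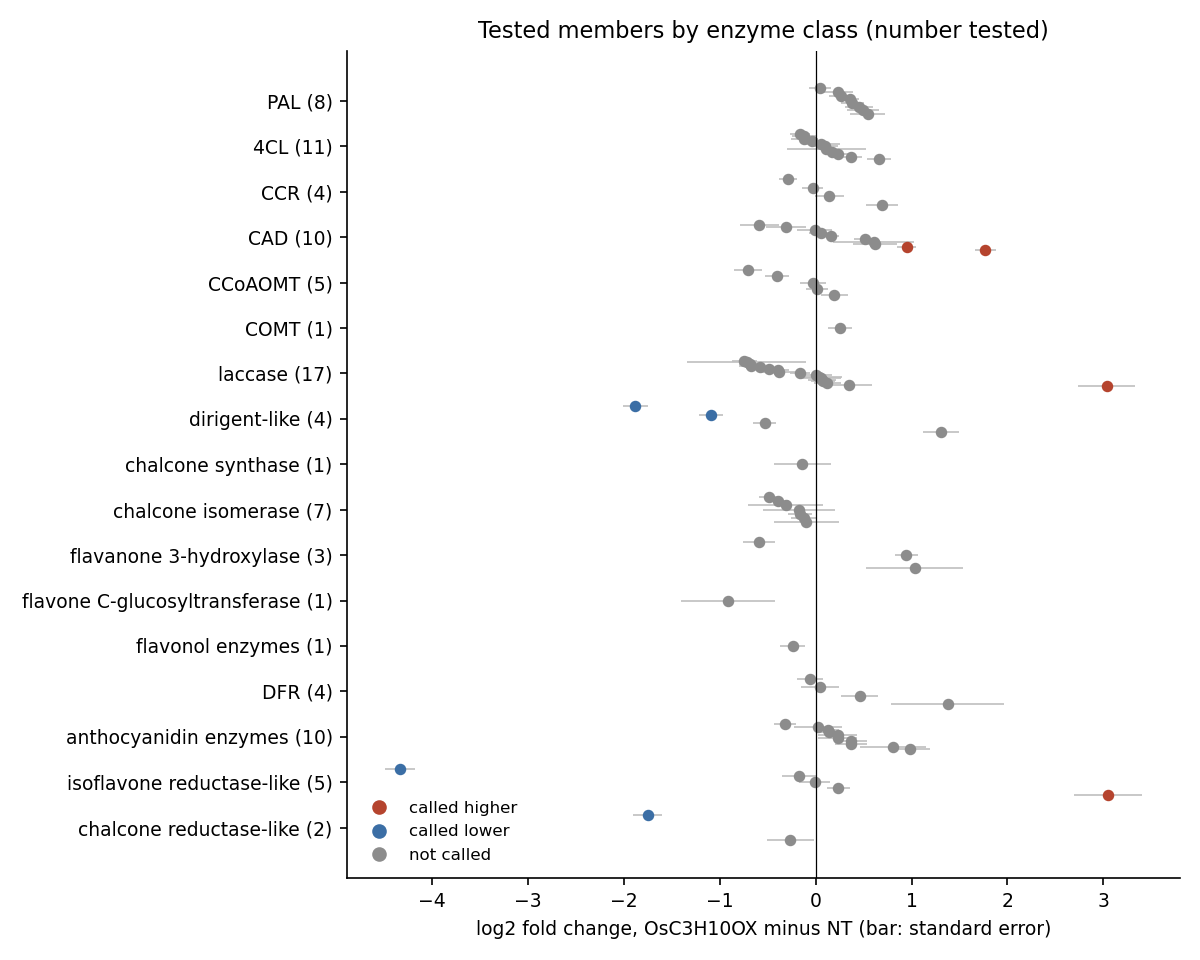
Log2 fold change (OsC3H10OX minus NT, x axis) of each tested member with its standard error, in rows by enzyme class with the number tested in brackets. Most of the 94 members lie within 1 unit of 0, the 8 PAL genes all lie above 0, and the members furthest from 0 are both isoflavone reductase-like genes on chromosome 12, at 3.05 and -4.33.

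At the entry of the pathway, all 8 PAL genes had a positive log2 fold change, of 0.04 to 0.54 with a median of 0.37, and none was called. In 7 of the 8, both OsC3H10OX libraries were above both NT libraries, against 27.3% of all tested genes. Os02g0626100 was the most abundant of all members, with 1057 and 849 FPKM in OsC3H10OX, against 702 and 600 FPKM in NT. The groups did not overlap, and its log2 fold change was 0.49 ± 0.17 (SE, limma BH-adjusted p = 0.253). Os02g0626400, the next most abundant PAL, had 182 and 183 FPKM in OsC3H10OX, against 146 and 160 FPKM in NT (log2 fold change 0.36 ± 0.10, limma BH-adjusted p = 0.204). With 1 transcript per gene, the 8 PAL genes summed to 1356 and 1139 FPKM in OsC3H10OX and to 950 and 851 FPKM in NT, and their 13 listed transcripts summed to 2002 and 1720 FPKM in OsC3H10OX and to 1585 and 1289 FPKM in NT. Not every transcript followed, and Os02t0626100-03 had 361 and 363 FPKM in OsC3H10OX, against 444 and 303 FPKM in NT. A group of 4 genes (Os02g0626100, Os02g0626400, Os02g0626600 and Os02g0627100) lies together on chromosome 2 (chr2:24973450-25009018, IRGSP 1.0), and their log2 fold changes were 0.26 to 0.49. The unadjusted limma p was under 0.05 for 5 PAL genes, all higher in OsC3H10OX, against 8.45% of all tested genes. The other 3 included Os04g0518100, which stood at 53.0 and 49.0 FPKM in OsC3H10OX and at 54.3 and 48.2 FPKM in NT. The lowest, Os12g0520200 (1.06 and 1.21 FPKM against 0.972 and 0.658 FPKM in NT), reached 1 FPKM only in OsC3H10OX, and its span overlaps the hypothetical gene Os12g0521101.

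Genes annotated as 4CL or 4CL-like, which join CoA to hydroxycinnamic acids, were near NT levels, and none of 11 was called. The most abundant, Os02g0177600, had 85.9 and 101 FPKM in OsC3H10OX, against 82.3 and 83.7 FPKM in NT, with a log2 fold change of 0.23 ± 0.11. The class median was 0.09. Os01g0901600, a 4CL-like gene, had the smallest unadjusted p of the class, with 4.38 and 4.78 FPKM in OsC3H10OX, against 2.42 and 2.63 FPKM in NT (log2 fold change 0.66, limma BH-adjusted p = 0.117).

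Among 9 CCR genes, which catalyse the step committed to monolignols, 4 were tested and none was called. Os06g0623600 stood highest against NT, at 21.8 and 16.3 FPKM in OsC3H10OX and 11.6 and 11.3 FPKM in NT (log2 fold change 0.69 ± 0.16, limma BH-adjusted p = 0.168). Os08g0441500, the most abundant CCR by matching transcript, had 44.0 and 56.9 FPKM in OsC3H10OX and 45.4 and 47.5 FPKM in NT. These groups overlapped. The matching transcript of Os09g0419200 was too low to be tested (0.530 and 0.603 FPKM in OsC3H10OX). Its main transcript Os09t0419200-01, annotated as an NAD(P)-binding domain protein, was above NT without being called. It had 65.8 and 85.1 FPKM in OsC3H10OX, against 45.4 and 50.8 FPKM in NT (log2 fold change 0.68, limma BH-adjusted p = 0.147). Os02g0811800 was not tested, since 1 library alone held it above 1 FPKM (7.45 FPKM in OsC3H10OX replicate 1, 0.623 FPKM in replicate 2, and 0.934 and 0.692 FPKM in NT).

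CAD genes, which catalyse the last reduction to monolignols, included 2 of the 4 members called higher. These are Os09g0400100 (chr9:13987066-13988149) and Os09g0400000 (chr9:13987065-13988779), whose annotated spans lie on top of each other, so that their reads cannot be told apart. Counted as 1 locus, they left 3 calls higher among 93 tested members (3.23%), or 2 without the laccase described below as well. Os09g0400100 had 39.6 and 37.3 FPKM in OsC3H10OX, against 10.1 and 11.6 FPKM in NT. The OsC3H10OX libraries were 3.54-fold higher on average, with a log2 fold change of 1.77 ± 0.11 (limma BH-adjusted p = 0.0151). Os09g0400000 had 20.7 and 22.0 FPKM in OsC3H10OX, against 10.3 and 11.2 FPKM in NT, a log2 fold change of 0.95 ± 0.10 (limma BH-adjusted p = 0.0401). In both, the gap between the groups was far wider than that between the libraries of a group.

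The locus lies in a row of 6 CAD genes (chr9:13982981-14002927), all of which were listed above NT on the log2 scale. In 5 of them both OsC3H10OX libraries were above both NT libraries, against 27.3% of all tested genes. These 5 include Os09g0400200, which was not tested (0.46 and 0.61 FPKM in OsC3H10OX, 0.18 and 0.23 FPKM in NT). Its span overlaps that of Os09g0400300, so the 6 genes are not 6 separate measurements. Os09g0400300, the most abundant of the row, had 68.1 and 63.1 FPKM in OsC3H10OX, against 45.4 and 49.8 FPKM in NT (log2 fold change 0.51 ± 0.11, limma BH-adjusted p = 0.147). Os09g0400400 had 5.80 and 3.33 FPKM in OsC3H10OX, against 2.31 and 2.77 FPKM in NT (log2 fold change 0.61, limma BH-adjusted p = 0.284). The remaining gene at measurable levels, Os09g0399800, split the OsC3H10OX libraries, with 16.3 and 37.7 FPKM there and 14.3 and 18.3 FPKM in NT. Outside the row, no CAD gene was called. Os02g0187800, known as GOLD HULL AND INTERNODE2 and required for lignin synthesis in rice, had 62.4 and 77.5 FPKM in OsC3H10OX, against 70.2 and 69.5 FPKM in NT, and its log2 fold change of 0.06 turned to -0.01 without normalization across libraries. Os11g0622800, a putative CAD, went the other way from the row, with 6.5 and 9.43 FPKM in OsC3H10OX, against 12.2 and 12.5 FPKM in NT (log2 fold change -0.59, limma BH-adjusted p = 0.258).

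**Figure D2:**
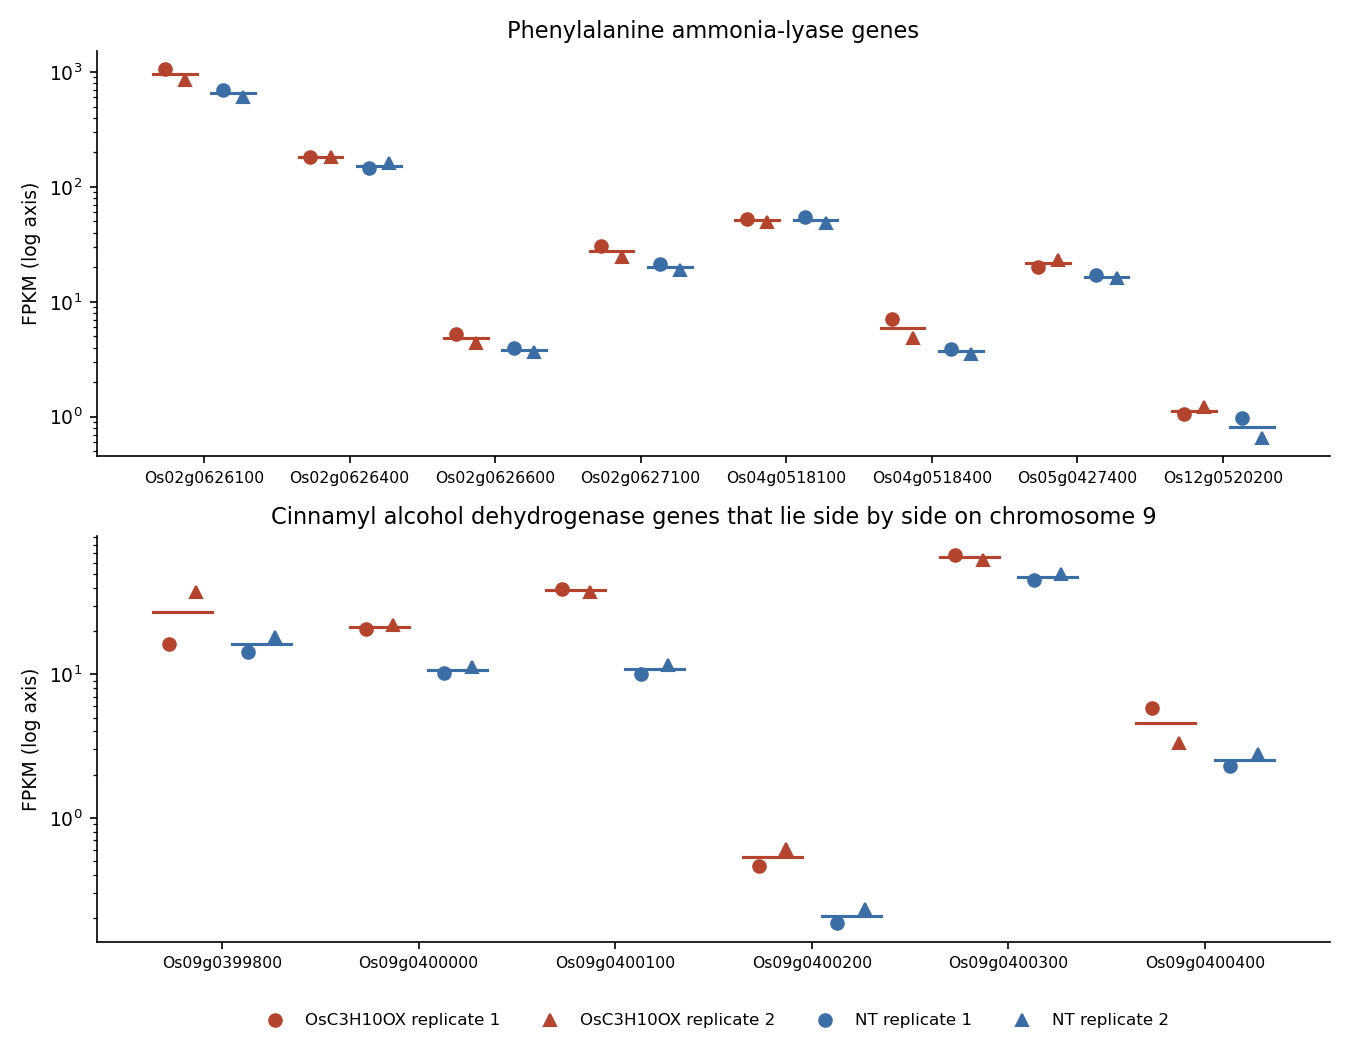
FPKM (log axis) of the 8 PAL genes (top) and of the 6 CAD genes that lie side by side on chromosome 9 (bottom), with a point per library and a line at the mean of each group, OsC3H10OX to the left of NT. The 4 libraries of Os09g0400100 fall into separate pairs at 37.3 to 39.6 FPKM and 10.1 to 11.6 FPKM, while PAL means differ by a smaller step in each gene.

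The methyltransferases that modify the ring of lignin precursors held no call. Caffeic acid 3-O-methyltransferase Os08g0157500 had 502 and 617 FPKM in OsC3H10OX, against 477 and 470 FPKM in NT (log2 fold change 0.26 ± 0.12, limma BH-adjusted p = 0.370). Of the 5 caffeoyl-CoA O-methyltransferases, the most abundant, Os08g0498100, had 336 and 344 FPKM in OsC3H10OX, against 354 and 382 FPKM in NT. Its log2 fold change was 0.01 on the deposited scale and -0.12 without normalization, so its direction depended on the scaling. The least abundant pair stood below NT in both libraries (27.1% of all tested genes). Os09g0481400 had 2.57 and 3.02 FPKM in OsC3H10OX, against 4.61 and 5.64 FPKM in NT (log2 fold change -0.71 ± 0.15, limma BH-adjusted p = 0.144).

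Laccases are copper oxidases, some of which polymerize monolignols in the wall of Arabidopsis. Of 19 laccase genes, 17 were tested, 1 was called higher (0.695% of all tested genes) and none was called lower (0.869%). Os12g0257600, annotated as similar to laccase-25 (chr12:8869547-8875025), had 18.3 and 9.86 FPKM in OsC3H10OX, against 0.702 and 0.876 FPKM in NT. It was 17.9-fold higher on average, and the log2 fold change was 3.03 ± 0.30 (limma BH-adjusted p = 0.0348). These values stand for 1410 and 700 reads in OsC3H10OX and 48 and 93 reads in NT. The gene passed the filter on low values only through OsC3H10OX, the group where it is high, so that it had to differ to be tested.

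Of the 17 tested laccases, 8 were below NT in both libraries (27.1% of all tested genes) and 2 above (27.3%), and the class median was -0.16. Os12g0259800, the other laccase-25-like gene, lies 199 kb from the called one and had 4.94 and 5.57 FPKM in OsC3H10OX, against 7.59 and 7.95 FPKM in NT (log2 fold change -0.49 ± 0.12, limma BH-adjusted p = 0.185). Laccase-8, Os01g0850800, had 1.30 and 1.12 FPKM in OsC3H10OX, against 2.46 and 2.64 FPKM in NT (log2 fold change -0.69, limma BH-adjusted p = 0.0889). The laccase-23-like neighbours Os11g0108650 and Os11g0108700 had log2 fold changes of -0.68 and -0.74, and reached 1 FPKM only in NT. Os01g0842500, the most abundant laccase by matching transcript, had 12.6 and 9.04 FPKM in OsC3H10OX and 15.2 and 13.6 FPKM in NT. For Os01g0850700, similar to laccase-7, the matching transcript had 1.88 and 1.69 FPKM in OsC3H10OX and 1.66 and 0.769 FPKM in NT. Its transcript Os01t0850700-02, annotated as a cupredoxin domain protein, was more abundant and above NT without being called. It had 25.7 and 29.1 FPKM in OsC3H10OX, against 17.2 and 16.4 FPKM in NT (log2 fold change 0.69, limma BH-adjusted p = 0.0866). Os11g0708100, similar to laccase-22, lies within the span of the hypothetical gene Os11g0708000, a transcript of which was called lower (2.24 and 1.80 FPKM in OsC3H10OX, against 25.6 and 24.6 FPKM in NT, limma BH-adjusted p = 0.00456), while the laccase itself stood at 6.83 and 9.53 FPKM in OsC3H10OX and 8.51 and 7.05 FPKM in NT.

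Dirigent proteins, first described in Forsythia, set the stereochemistry of monolignol coupling. All 4 tested dirigent-like genes were separate between the groups, 3 below NT (27.1% of all tested genes) and 1 above (27.3%). Of the 3, 2 were called lower (0.869% of all tested genes). Os10g0334500 (chr10:9583113-9584286) had 7.60 and 6.00 FPKM in OsC3H10OX, against 27.9 and 27.5 FPKM in NT, a 4.08-fold difference (log2 fold change -1.88 ± 0.13, limma BH-adjusted p = 0.0182). Os11g0179700 (chr11:3959111-3959687) had 8.39 and 9.62 FPKM in OsC3H10OX, against 19.3 and 21.6 FPKM in NT (log2 fold change -1.09 ± 0.13, limma BH-adjusted p = 0.0474). The opposite direction was found for Os07g0643800, with 41.3 and 29.6 FPKM in OsC3H10OX, against 13.2 and 14.4 FPKM in NT. At a log2 fold change of 1.31 ± 0.19 it passed 2-fold and not the test (limma BH-adjusted p = 0.0726). Os07g0638500 was lower in both libraries at 1.59 and 1.38 FPKM in OsC3H10OX, against 2.67 and 2.45 FPKM in NT.

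The plants were sequenced whole, and a root marker list (RCc3-like, cortical cell and root-specific annotations) moved with these lower members. Of its 8 genes, 6 were tested, 5 were below NT in both OsC3H10OX libraries (27.1% of all tested genes) and 2 were called lower (0.869%). The summed level of the list was 357 and 377 FPKM in OsC3H10OX and 564 and 556 FPKM in NT, and no gene of it was at 0 in all libraries. RCc3 itself (Os02g0662000) had 265 and 272 FPKM in OsC3H10OX, against 392 and 390 FPKM in NT, and the called markers were the RCc3-like Os04g0554500 (20.7 and 23.5 FPKM against 57.6 and 57.4 FPKM in NT) and Os04g0554600 (2.79 and 4.22 FPKM against 15.4 and 15.0 FPKM in NT). The part of root content in the members' differences was not tested, and fewer cells of a type and less RNA per cell cannot be told apart. Of 51 green tissue genes (light-harvesting and photosystem annotations), 50 were tested and none was called by limma (4 higher and 1 lower at an unadjusted p under 0.05, median log2 fold change 0.01). Their summed level was 23499 and 25324 FPKM in OsC3H10OX and 22230 and 23126 FPKM in NT, with no gene at 0 in all libraries. None of 7 tested seed reserve genes was called by limma (0 higher and 2 lower at an unadjusted p under 0.05), and that list summed to 211 and 211 FPKM in OsC3H10OX and 246 and 292 FPKM in NT. At that unadjusted limit, 8.45% of all tested genes were higher and 9.61% lower.

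In the flavonoid branch, no gene of the first steps was called. Chalcone synthase Os11g0530600 had 21.0 and 38.1 FPKM in OsC3H10OX and 30.8 and 32.7 FPKM in NT (log2 fold change -0.14 ± 0.30). All 7 genes with a chalcone isomerase annotation had a negative log2 fold change, of -0.49 to -0.10. Of these, 3 were below NT in both libraries, against 27.1% of all tested genes. The isomerase Os03g0819600, the most abundant, had 107 and 200 FPKM in OsC3H10OX, against 143 and 200 FPKM in NT, and its second transcript, at 30.3 and 5.90 FPKM in OsC3H10OX and 17.9 and 0.0235 FPKM in NT, varied more within groups than between them. The clearest member of the class was Os06g0203600, an isomerase domain gene, with 5.43 and 5.35 FPKM in OsC3H10OX, against 7.94 and 7.95 FPKM in NT (log2 fold change -0.49 ± 0.10, limma BH-adjusted p = 0.146).

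Further down the branch, flavanone 3-hydroxylase opens the way to flavonols and anthocyanidins. Os04g0581000, similar to that enzyme, had 3.35 and 2.78 FPKM in OsC3H10OX, against 1.08 and 1.12 FPKM in NT, just outside the threshold (log2 fold change 0.94 ± 0.12, limma BH-adjusted p = 0.0578). Os03g0122300, a flavanone 3-hydroxylase-like gene, was above NT mainly in 1 library, at 39.1 and 13.8 FPKM in OsC3H10OX, against 11.2 and 11.1 FPKM in NT (log2 fold change 1.03 ± 0.50, limma BH-adjusted p = 0.371). Dihydroflavonol 4-reductase makes leucoanthocyanidins, and Os03g0184550, similar to it, had 11.5 and 2.75 FPKM in OsC3H10OX, against 1.38 and 1.95 FPKM in NT (log2 fold change 1.38 ± 0.59, limma BH-adjusted p = 0.331). Its neighbour Os03g0184600 stood at 9.26 and 11.0 FPKM in OsC3H10OX and 10.3 and 11.0 FPKM in NT. The third flavanone member, Os02g0767300, was lower in both libraries, at 1.20 and 1.65 FPKM in OsC3H10OX and 2.39 and 2.86 FPKM in NT.

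Of 19 genes annotated for anthocyanidin steps, 10 were tested, 9 had a positive log2 fold change and none was called. Os03g0289800, a leucoanthocyanidin dioxygenase-like gene, had 2.0 and 1.03 FPKM in OsC3H10OX, against 0.251 and 0.223 FPKM in NT (log2 fold change 0.98 ± 0.20, limma BH-adjusted p = 0.140), and it reached 1 FPKM only in OsC3H10OX. Os04g0630800, similar to anthocyanidin reductase, had 17.4 and 8.31 FPKM in OsC3H10OX, against 6.41 and 6.71 FPKM in NT (log2 fold change 0.81 ± 0.34, limma BH-adjusted p = 0.326). A set of 3 pairs of leucoanthocyanidin dioxygenase genes on chromosome 6 (Os06g0176500 and Os06g0177700, Os06g0176650 and Os06g0178450, Os06g0176850 and Os06g0178650) was listed with identical FPKM in all 4 libraries, so each pair is a single measurement and its levels are uncertain. Of these pairs, Os06g0176650 with Os06g0178450 and Os06g0176850 with Os06g0178650 were tested, and both genes of each count among the 9 positive ones. Counting each pair once left 92 tested members with the same 4 calls in each direction.

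**Figure D3:**
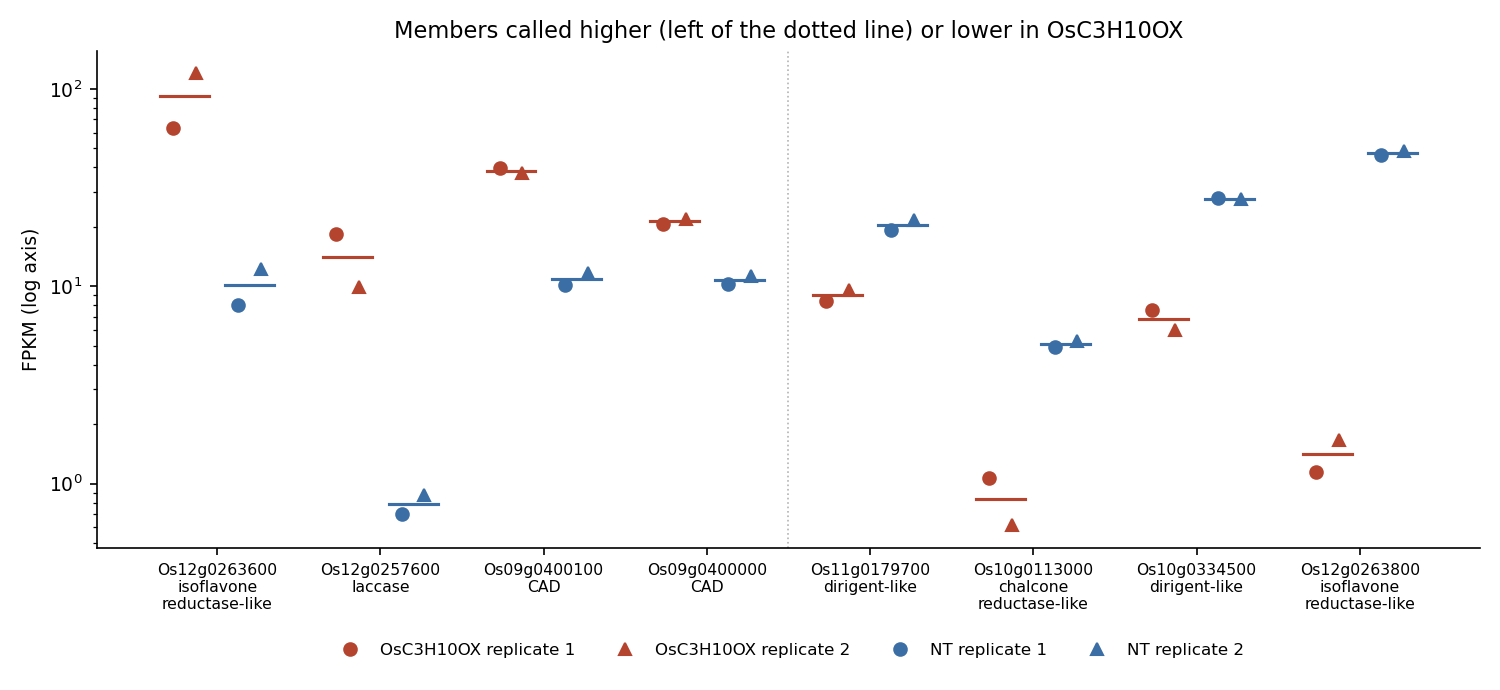
FPKM (log axis) of the 8 called members in the 4 libraries, with a line at the mean of each group, OsC3H10OX to the left of NT for each gene. The 4 members called higher are left of the dotted line and the 4 called lower are right of it, and no gene has overlapping groups.

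The largest differences among the members were in a pair of genes annotated as similar to isoflavone reductase-like protein 1, which lie 8.02 kb apart on chromosome 12 and moved in opposite directions. Proteins of this kind belong to the same reductase family as pinoresinol-lariciresinol reductase, an enzyme of lignan synthesis. Os12g0263600 (chr12:9286790-9291494) had 63.2 and 119.8 FPKM in OsC3H10OX, against 8.08 and 12.2 FPKM in NT. It was 9.02-fold higher on average (log2 fold change 3.05 ± 0.35, limma BH-adjusted p = 0.0472), with the OsC3H10OX libraries apart by 1.90-fold. Its call held in 4 of 10 alternative fits that used all libraries. Os12g0263800 (chr12:9299518-9311555) had 1.15 and 1.66 FPKM in OsC3H10OX, against 46.4 and 48.5 FPKM in NT. That was a 33.7-fold lower mean in OsC3H10OX (log2 fold change -4.33 ± 0.16, limma BH-adjusted p = 0.00456), from 171 and 228 reads in OsC3H10OX and 6148 and 9917 reads in NT.

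The 3 listed transcripts of Os12g0263800 did not move together. Os12t0263800-03, the member given above, and Os12t0263800-01 (0.827 and 0.978 FPKM in OsC3H10OX, against 13.2 and 14.1 FPKM in NT) were both called lower, the second at a log2 fold change of -2.94 (limma BH-adjusted p = 0.00621). Os12t0263800-02 had 15.9 and 15.2 FPKM in OsC3H10OX, against 9.98 and 10.3 FPKM in NT (log2 fold change 0.58, limma BH-adjusted p = 0.0894). With the FPKM of the 3 summed, the gene's log2 fold change was -1.94. The other isoflavone reductase-like genes lay near NT. The most abundant, Os01g0106400, had 82.0 and 98.8 FPKM in OsC3H10OX and 76.7 and 83.5 FPKM in NT.

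Os10g0113000 (chr10:866391-868385), a homologue of chalcone reductase, an enzyme that acts beside chalcone synthase in legumes, was the remaining member called lower. It had 1.06 and 0.613 FPKM in OsC3H10OX, against 4.92 and 5.28 FPKM in NT (log2 fold change -1.75 ± 0.15, limma BH-adjusted p = 0.0270). The OsC3H10OX values rest on 45 and 24 reads. Only 1 of these libraries reached 1 FPKM, so the gene needed NT, the group where it is high, to pass the filter on low values. A hypothetical gene within its span, Os10g0113050, had 2.70 and 1.41 FPKM in OsC3H10OX and 8.27 and 9.15 FPKM in NT. The other homologue, Os04g0167800, had 3.34 and 5.46 FPKM in OsC3H10OX and 5.16 and 5.47 FPKM in NT.

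The 3 called members on chromosome 12 lie within a stretch of 442 kb. The 25 tested genes centred on Os12g0257600 held 5 called genes, those centred on Os12g0263600 held 6, and those centred on Os12g0263800 held 5, each count including the members themselves. These windows were placed on called members and overlap, so the same called genes are counted in more than 1 of them. Next to the laccase, 8.89 kb away, the conserved hypothetical gene Os12g0257500 had 18.6 and 14.4 FPKM in OsC3H10OX, against 1.30 and 0.989 FPKM in NT (log2 fold change 3.03, limma BH-adjusted p = 0.0131). On the near side of the isoflavone reductase-like pair, 3.25 kb from Os12g0263600, pinoresinol-lariciresinol reductase TH2 (Os12g0263200) had 8.17 and 15.7 FPKM in OsC3H10OX, against 22.6 and 19.9 FPKM in NT (log2 fold change -0.84, limma BH-adjusted p = 0.295). Over all tested genes, the share called was 3.46% on chromosome 12, 3.99% on chromosome 11, 2.08% on chromosome 10 and 0.699% on chromosome 9. Across all chromosomes, 0.695% of tested genes were called higher and 0.869% lower. No member was called on chromosomes 1 to 8, where the share was 2.88% on chromosome 7 and 1.96% on chromosome 4.

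**Figure D4:**
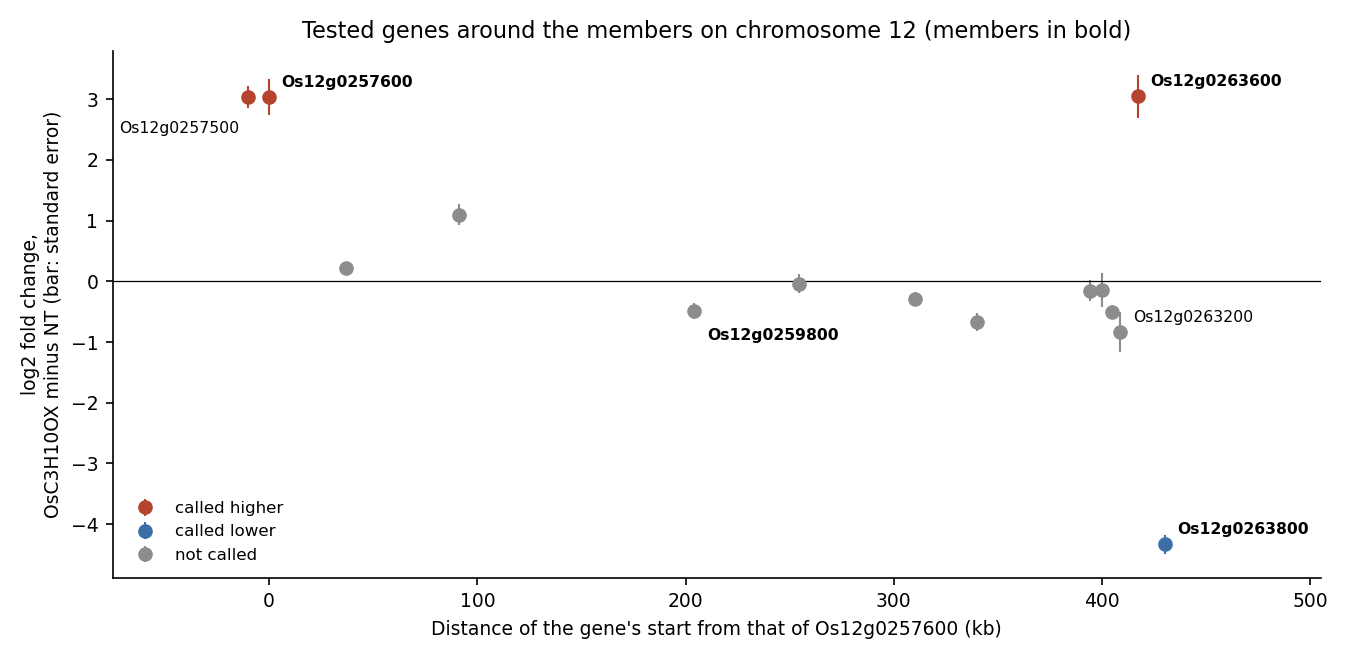
Log2 fold change (OsC3H10OX minus NT, y axis, with standard error) of the tested genes of the stretch on chromosome 12 that holds the called members, by distance in kb of each gene's start from the start of laccase Os12g0257600. Called genes lie at both ends of the stretch at 3.03, 3.03, 3.05 and -4.33, and the genes between them were not called.

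For the members, the OsC3H10OX libraries lay further apart than the NT libraries, with a median gap of 0.25 in OsC3H10OX and 0.11 in NT on the log2 scale, against 0.17 and 0.11 over all tested genes. The gap between the libraries of a group reached 1 on the log2 scale for 8 of 94 members (8.51%) in OsC3H10OX and for 0 in NT, against 2.06% of all tested genes in OsC3H10OX and 1.39% in NT. On the normalized log2 scale, all 9 tested genes of chalcone synthase, chalcone isomerase and flavone C-glucosylation were higher in OsC3H10OX replicate 2 than in replicate 1, and 5 of the 9 were higher in NT replicate 2 than in NT replicate 1. By FPKM, these counts were 8 in OsC3H10OX and 6 in NT. C-glucosyltransferase Os06g0288300, which makes flavone C-glycosides, had 7.20 and 20.2 FPKM in OsC3H10OX, against 22.6 and 25.2 FPKM in NT (log2 fold change -0.91 ± 0.49, limma BH-adjusted p = 0.404). The isomerase domain genes Os11g0116300 (45.4 and 96.8 FPKM in OsC3H10OX, 75.7 and 82.2 FPKM in NT) and Os12g0115700 (23.0 and 50.2 FPKM in OsC3H10OX, 40.1 and 46.9 FPKM in NT) had the same order. CYP93G2 (Os06g0102100), the P450 that precedes C-glucosylation and is no member, had 5.0 and 15.8 FPKM in OsC3H10OX and 9.17 and 9.80 FPKM in NT. The reverse order was found for Os03g0122300 and Os03g0184550, which were 2.84-fold and 4.16-fold higher in OsC3H10OX replicate 1 than in replicate 2. These classes were picked after the values were seen, and replicates of 1 group have no order, so this is a description of 2 libraries.

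**Figure D5:**
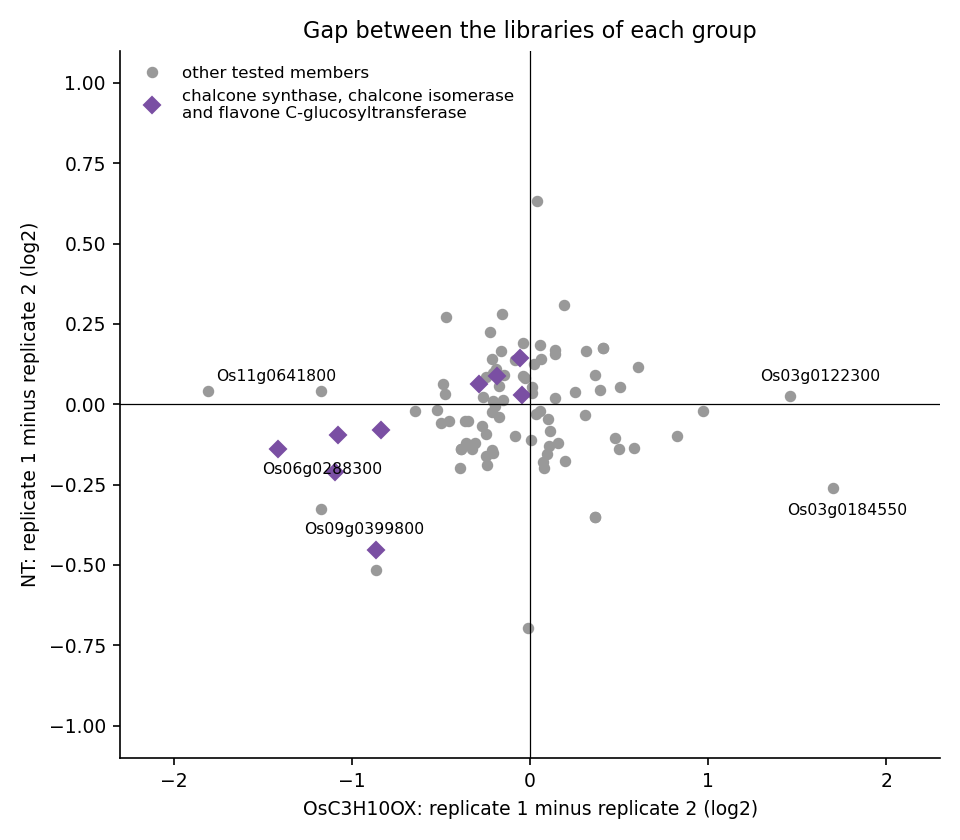
Gap between the libraries of OsC3H10OX (x axis) and between those of NT (y axis), each as replicate 1 minus replicate 2 of the normalized log2 values, for the 94 tested members, with chalcone synthase, chalcone isomerase and flavone C-glucosyltransferase as diamonds. All 9 diamonds lie left of 0, and the spread along the OsC3H10OX axis is wider than along the NT axis, where no gap reaches 1.

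Genes of the shikimate supply and of other pathway steps, taken by annotation words, were also counted. Over all tested genes, 8.45% were higher and 9.61% lower at an unadjusted limma p under 0.05, the shares to set beside these counts. Of 30 shikimate and phenylalanine supply genes, 26 were tested and limma called none (1 higher and 2 lower at an unadjusted p under 0.05), with a median log2 fold change of -0.10. The most abundant, the 3-phosphoshikimate 1-carboxyvinyltransferase Os06g0133900, had 84.0 and 88.7 FPKM in OsC3H10OX and 90.2 and 91.0 FPKM in NT. Of 14 pathway P450 genes, 11 were tested and limma called none (3 higher and 0 lower at an unadjusted p under 0.05), and the most abundant, the flavonoid 3',5'-hydroxylase-like Os03g0367200, had 32.6 and 29.4 FPKM in OsC3H10OX and 27.0 and 36.6 FPKM in NT. The 3 were cinnamate 4-hydroxylase genes Os02g0467000 and Os02g0467600, which act right after PAL, and the flavonoid 3-monooxygenase-like Os08g0547900, with log2 fold changes of 0.42, 0.53 and 0.41. Neither of 2 hydroxycinnamoyltransferase genes was called (1 higher and 0 lower at an unadjusted p under 0.05), and Os02g0611800 had 62.9 and 62.5 FPKM in OsC3H10OX and 74.7 and 89.9 FPKM in NT.

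Of 15 tested genes with other O-methyltransferase annotations, 1 was called lower (0.869% of all tested genes) and none higher (0.695%). This list also holds methyltransferases of other pathways, such as those of tocopherol, chlorophyll precursors, proteins and tRNA. Os09g0344500, similar to the maize root methyltransferase ZRP4, had 0.665 and 0.864 FPKM in OsC3H10OX, against 4.02 and 3.79 FPKM in NT (log2 fold change -1.48, limma BH-adjusted p = 0.0305). The most abundant of that list, the tocopherol methyltransferase Os02g0701600, had 48.2 and 74.1 FPKM in OsC3H10OX and 78.5 and 79.4 FPKM in NT. Of the 3 lignan reductase genes, none was called and none had an unadjusted p under 0.05, and Os12g0265100 stood at 37.5 and 42.3 FPKM in OsC3H10OX and 43.9 and 45.8 FPKM in NT. Cellulose synthase A builds the other main wall polymer, and the annotation words matched 3 genes, of which 2 were tested. Both were below NT in both libraries (27.1% of all tested genes) without being called. At an unadjusted limma p under 0.05, 0 were higher (8.45% of all tested genes) and 2 lower (9.61%). The 2 genes were read from the transcripts Os07t0252400-02 and Os05t0176100-06, listed at 1335 and 1426 nt. Transcripts and genes annotated in other words were not counted. Os07g0252400 had 42.0 and 44.3 FPKM in OsC3H10OX, against 73.8 and 67.6 FPKM in NT (log2 fold change -0.65, limma BH-adjusted p = 0.0819), and Os05g0176100 had 60.4 and 69.8 FPKM in OsC3H10OX, against 98.3 and 84.1 FPKM in NT.

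These calls rest on a spread shared across transcripts, since 2 libraries against 2 cannot go below p = 0.333 in an exact permutation test. Leaving out NT replicate 2 left 0 members called by limma (20 members at an unadjusted p under 0.05), and leaving out NT replicate 1 left only Os12g0263800, while 3 higher and 3 lower members were called without OsC3H10OX replicate 1 and 8 higher and 6 lower without OsC3H10OX replicate 2. Over all 30449 transcripts, limma called 0 without NT replicate 2, and 580 higher and 449 lower without OsC3H10OX replicate 2, against 197 and 256 with all libraries, so the counts moved over the whole table. With each transcript's own spread all 8 calls were lost, at BH-adjusted p of 0.199 to 0.325, and with no filter on low values Os12g0263800 and Os09g0400100 alone were called by limma.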

How the data were processed

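RNA-seq libraries (TruSeq RNA v2) of whole 3-week-old plants were sequenced by the authors with 2 biological replicates per group. The reads were trimmed with Trimmomatic 0.32 and aligned by TopHat to IRGSP 1.0 and its RAP-DB gene models, and the authors deposited FPKM per transcript. The tool that computed FPKM is not given in the sources used here. The deposited log2 values equal log2(FPKM + 1) after quantile normalization (sorted values differed by at most 0.00178). The authors' fold changes, p-values and group means, deposited in the same table, were not used. Growth and sequencing batches and the number of plants per library are not given in the sources used here, so a batch and the genotype cannot be told apart. The labels of the NT libraries hold what may be a year, and those of OsC3H10OX do not.

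Transcripts that reached 1 FPKM in 2 or more libraries (30449 of 37972) were fitted with limma 3.58.1 in R 4.3.3 (trended prior variance with 2.37 prior degrees of freedom, adjustment by BH), and the procedure was tested on simulated data. Counts over all genes used the most abundant transcript of each of 25882 genes. Reads per FPKM were found from whole-number steps of low FPKM values (91.5% to 92.8% whole within 0.05). Listed starts count from 0 and were raised by 1 (9352 transcripts had a length of end minus start). No RefSeq entry matched a member. Named genes were those called, those at least 2-fold changed, the most abundant and the smallest p of each class, and neighbours within 50 kb. All other genes in the text were named after their values were seen. From the lists by words, CYP734A7 and ERCC3, which only share letters with CYP73 and RCC3, were removed after the files were read. Members, classes and lists were chosen with earlier results of these data known. Alternatives were other scales and filters, FPKM summed per gene, other treatments of the spread, a replicate block, the 2-fold rule of the study and leaving out each library.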

Additional observations from a re-analysis of the deposited data

How the results depend on the processing

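The count of members called higher or lower (4 and 4) was 3 to 5 and 3 to 4 without normalization, with 0.1 as pseudocount, with a filter of 5 FPKM or on the mean, with FPKM summed per gene, without the trend and with robust estimation. It was 1 and 1 with no filter, where 37972 transcripts shared the adjustment, and 0 and 0 with each transcript's own spread (28 members at an unadjusted p under 0.05). The study's 2-fold rule, with an unadjusted p under 0.05 on that own spread, gave 4 and 4 and kept 7 of the 8 calls. Os12g0263600 lost its call without normalization (limma BH-adjusted p = 0.0575), with 0.1 as pseudocount (0.0604) and with the filter on the mean (0.0548), among others. Of the alternatives with all libraries, Os11g0179700 kept its call in 5 of 10 and Os10g0113000 in 5 of 9. Replicate numbers did not pair the libraries (correlation of deviations -0.0258), and with a replicate block 0 were called higher and 1 lower. Leaving out each library gave 0 to 8 higher and 0 to 6 lower, and the causes were not tested. The log2 fold changes of the 8 called members kept their direction under every alternative run. Leaving out a library could not turn it, since the groups of these members do not overlap. Filters, other treatments of the spread and the replicate block leave the fold change itself as it is. Directions near 0 did not hold. Without normalization, with 0.1 as pseudocount and with FPKM summed, the log2 fold change was -0.0053, -0.0054 and -0.031 for Os02g0187800, -0.013, -0.012 and -0.013 for Os07g0503600 (similar to anthocyanidin glucosyltransferase), and -0.116, -0.116 and -0.116 for Os08g0498100. The runs with 0.1 as pseudocount and with FPKM summed also went without normalization, so neither change was tried apart from it. Leaving out a library turned the direction of 8 named members, whose ranges were -0.072 to 0.194 for Os02g0187800, -0.195 to 0.075 for Os03g0184600, -0.527 to 0.335 for Os03g0819600, -0.586 to 0.059 for Os04g0167800, -0.327 to 0.369 for Os07g0503600, -0.029 to 0.318 for Os08g0441500, -0.052 to 0.077 for Os08g0498100 and -0.556 to 0.279 for Os11g0530600. Depth limits the members under 1 FPKM, which rest on fewer than 56.65 reads per kb.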
